A study of Mus musculus with 12 samples.

Results

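The immediate early activity genes described here are 10 genes chosen by name, Fos, Fosb, Junb, Egr1, Egr3, Arc, Npas4, Nr4a1, Ier2 and Dusp1, out of 56941 genes in each count table. All 10 passed the filter on low counts, which left 20341 genes for testing. Immediate early genes are transcribed within minutes of a stimulus without new protein synthesis. In neurons, calcium entry and kinase signalling reach factors such as CREB and SRF that already sit on their promoters, and the resulting mRNAs are short-lived. Their level in a tissue is therefore widely used as a trace of recent neuronal activity.

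Bulk cerebellar RNA was sequenced from 12 mice, 3 in each of 4 groups. SCA1 mice were heterozygous for an expanded CAG repeat knocked into Atxn1, so the altered protein was made wherever Atxn1 is normally expressed, and WT mice were their littermates on a C57BL/6J background. Exercise mice were housed alone with a running wheel for 12 weeks, sedentary mice were housed in groups without one, and all were 16 weeks old at the end, so exercise and housing cannot be told apart. Every mouse went through motor and behavioural testing after the wheels were withdrawn and was perfused under anaesthesia after its last test. Both sexes were used, and the labels do not give the sex of each mouse or the interval between last test and perfusion.

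Between 20556802 and 32127508 read pairs were counted to genes on the transcribed strand per library, and values are counts per 1000000 (CPM) scaled by trimmed mean of M values (TMM). Purkinje cell markers were present in every library, with Pcp2 between 89.2 and 207 CPM. A pair of libraries, from mouse 16 (SCA1, sedentary) and mouse 55 (SCA1, exercise), stood apart, with 6.38% and 6.33% of read pairs mapping to several places against 2.08% to 3.46% in the other 10. Their summed brainstem marker levels were 205 and 178 CPM against 30.6 to 55.6 CPM elsewhere, and their oligodendrocyte markers 6999 and 5583 CPM against 2509 to 4224 CPM. All 4 brainstem markers that passed the filter, of 6 listed, and all 6 oligodendrocyte markers were highest in these mice. Granule cell markers summed to 1967 and 2554 CPM there against 2933 to 3939 CPM elsewhere. Purkinje cell markers summed to 4145 to 5640 CPM in SCA1 sedentary mice against 6911 to 7792 CPM in WT sedentary mice, with 5631 to 6871 CPM in SCA1 exercise and 7291 to 7758 CPM in WT exercise mice. Choroid plexus markers summed to 7.92, 139 and 399.7 CPM in WT sedentary mice and to 800.4 to 1888 CPM in WT exercise mice, with 9.04 to 1155 CPM in SCA1 sedentary and 517 to 1584 CPM in SCA1 exercise mice. Hoxb8, a brainstem and spinal cord marker, was at 0 in 9 libraries. In bulk tissue, fewer cells of a type and less RNA per cell cannot be told apart.

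The promoters of 4 genes are shown as examples of the motifs found, with the core of the cAMP response element in Fos and Nr4a1, the full element in Dusp1 and an Egr site in Arc. Each is the 250 bases before the canonical transcript start in GENCODE M39, read from GRCm39 and written 5′ to 3′ along the gene. Capitals mark the cAMP response element TGACGTCA or its core TGACG, the Egr site GCGNGGGCG and the TATA box letters TATAAA. Each is marked on either strand and at any position, so that CGTCA is the core and TTTATA is TATAAA read on the other strand.
Fos (chr12:85520408-85520657, plus strand): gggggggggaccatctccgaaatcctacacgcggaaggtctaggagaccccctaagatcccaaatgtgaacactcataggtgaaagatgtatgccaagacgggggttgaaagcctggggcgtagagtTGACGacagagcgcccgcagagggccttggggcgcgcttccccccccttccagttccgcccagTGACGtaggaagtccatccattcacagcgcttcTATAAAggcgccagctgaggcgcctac
Nr4a1 (chr15:101164410-101164659, plus strand): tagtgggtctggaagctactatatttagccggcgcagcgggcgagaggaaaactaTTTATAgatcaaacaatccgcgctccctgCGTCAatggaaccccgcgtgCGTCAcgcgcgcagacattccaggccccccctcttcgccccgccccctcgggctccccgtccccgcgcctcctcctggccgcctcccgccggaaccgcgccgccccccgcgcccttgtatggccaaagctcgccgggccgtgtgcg
Dusp1 (chr17:26727494-26727743, minus strand): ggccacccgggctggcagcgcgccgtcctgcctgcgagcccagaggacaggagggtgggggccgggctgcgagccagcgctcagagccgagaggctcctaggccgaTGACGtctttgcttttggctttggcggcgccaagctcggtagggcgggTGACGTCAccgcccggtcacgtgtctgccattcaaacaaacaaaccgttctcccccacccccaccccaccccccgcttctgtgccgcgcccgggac
Arc (chr15:74544420-74544669, minus strand): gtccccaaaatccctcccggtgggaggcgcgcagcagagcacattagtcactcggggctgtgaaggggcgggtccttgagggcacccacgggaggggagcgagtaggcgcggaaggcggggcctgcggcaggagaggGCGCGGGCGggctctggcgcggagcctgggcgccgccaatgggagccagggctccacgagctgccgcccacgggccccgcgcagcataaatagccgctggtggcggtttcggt

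The core TGACG, which CREB recognizes, was found before 8 of the 10 genes and before 22.1% of all 14642 promoters of that length. The full element TGACGTCA, which contains the core, was found before Ier2 and Dusp1, and before 1.96% of all promoters. In Dusp1 it ended 89 bases before the start. Fos held the core from 60 to 56 bases before its start, and a TATA box from 27 to 22 bases before it. TATAAA was found before Fos, Junb and Nr4a1 and before 7.38% of promoters. GCGNGGGCG was found before Fosb and Arc and before 6.07% of promoters, and a serum response element before Egr3 and 1.20% of promoters. None of these motifs was found before Npas4. These matches describe letters in a window and were not measured as binding.

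In GENCODE M39 on GRCm39, the genes lie, with their strand, as Fos at chr12:85520658-85524047 (plus), Fosb at chr7:19036621-19043976 (minus), Junb at chr8:85701113-85705359 (minus), Egr1 at chr18:34992876-34998049 (plus), Egr3 at chr14:70314350-70320063 (plus), Arc at chr15:74540932-74544419 (minus), Npas4 at chr19:5034382-5040344 (minus), Nr4a1 at chr15:101151980-101172681 (plus), Ier2 at chr8:85387960-85389483 (minus) and Dusp1 at chr17:26724564-26781102 (minus). Exons of Prdx2 and Gm65321 overlap Junb, exons of Ergic1 overlap Dusp1 and exons of Gm63180 overlap Nr4a1, all on the opposite strand.

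Levels differed widely between the 10 genes when CPM was divided by canonical transcript length. Dusp1, a phosphatase that switches off MAP kinases, had the highest median at 13.1 CPM per kb. Arc, a synaptic protein that controls AMPA receptor removal, had a median of 7.08 CPM per kb, and Egr1, a zinc finger factor, of 6.80 CPM per kb. Dusp1 was above Arc in 11 of 12 libraries, whereas Arc was above Egr1 in 8 of 12, so the order of that pair was not fixed. Ier2, a nuclear protein, followed at 5.51, Nr4a1, an orphan nuclear receptor, at 4.66, Junb at 3.44 and Fos at 2.57 CPM per kb. Ier2 was above Nr4a1 in 6 of 12 libraries and Junb was above Fos in 7 of 12. Npas4, a neuron-restricted factor induced by calcium entry, had 0.567, Fosb 0.161 and Egr3 0.0882 CPM per kb. The last of these were sparse, with as few as 2 counts of Fosb and 3 of Egr3 in a library.

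**Figure D1:**
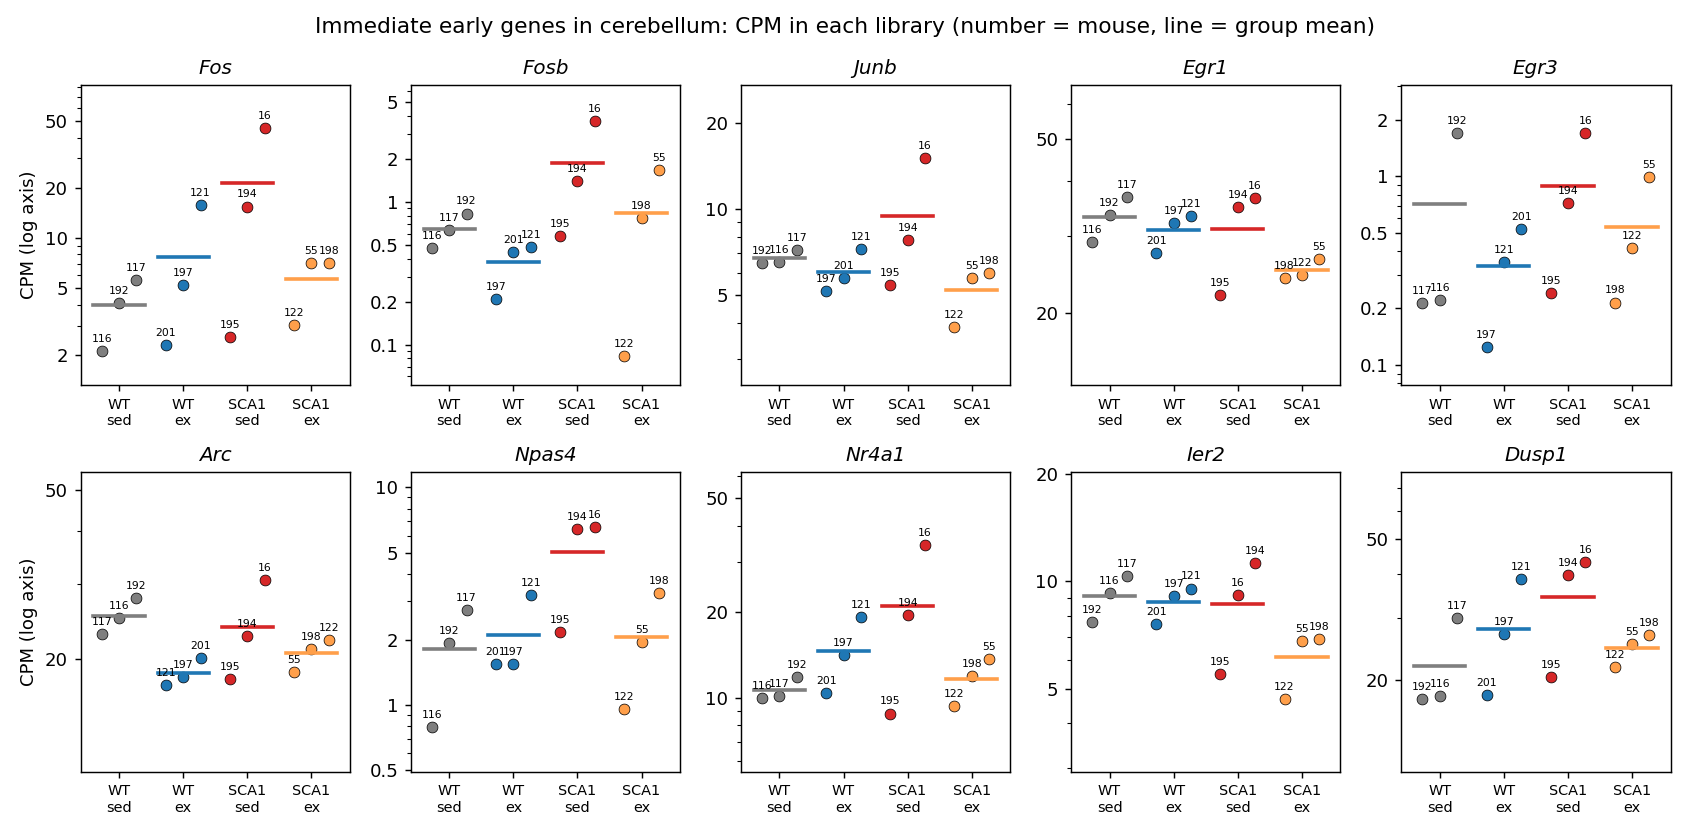
CPM of each gene on a log axis, with 1 point per library labelled by mouse and a line at the group mean of 3 mice. Fos ran from 2.11 CPM in WT sedentary mouse 116 to 45.9 CPM in SCA1 sedentary mouse 16.

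Fos, the AP-1 subunit most used as an activity trace, was highest in SCA1 sedentary mice on average but with the widest spread. Its levels in WT sedentary mice 116, 117 and 192 were 2.11, 5.64 and 4.11 CPM, and in WT exercise mice 121, 197 and 201 they were 15.7, 5.22 and 2.30 CPM. SCA1 sedentary mice 16, 194 and 195 had 45.9, 15.5 and 2.55 CPM, and SCA1 exercise mice 55, 122 and 198 had 7.06, 3.0 and 7.07 CPM. SCA1 sedentary mouse 195 lay within the range of the WT sedentary mice, so the groups overlapped. For WT mice the mean was 3.96 ± 1.77 CPM (SD, n = 3) when sedentary and 7.73 ± 7.04 after exercise, and for SCA1 mice it was 21.3 ± 22.2 when sedentary and 5.71 ± 2.35 after exercise.

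Fosb, a second Fos family member, had 3.67, 1.40 and 0.577 CPM in SCA1 sedentary mice 16, 194 and 195 against 0.473 to 0.830 CPM in WT sedentary mice. Its SCA1 exercise values were 1.67, 0.0834 and 0.772 CPM in mice 55, 122 and 198, and its WT exercise values ran from 0.209 to 0.482 CPM. Junb, a partner of the Fos proteins in AP-1, was at 15.1 CPM in SCA1 sedentary mouse 16 and between 3.88 and 7.81 CPM in the other 11. Junb thus stood out in a single library, whereas Fosb was high in mice 16, 194 and 55.

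Npas4 was at 6.57 and 6.46 CPM in SCA1 sedentary mice 16 and 194 and at 2.17 CPM in mouse 195. WT sedentary mice 116, 117 and 192 had 0.789, 2.73 and 1.92 CPM of Npas4, SCA1 exercise mice 55, 122 and 198 had 1.94, 0.959 and 3.26 CPM, and WT exercise mice had 1.54 to 3.20 CPM. Here mouse 194 was about as high as mouse 16. Their brainstem marker sums were 41.8 and 205 CPM, and the part of these in the Npas4 values was not tested. Nr4a1 followed the same order within SCA1 sedentary mice, with 34.4, 19.5 and 8.81 CPM in mice 16, 194 and 195. WT sedentary mice had 9.94, 10.2 and 11.8 CPM of Nr4a1, WT exercise mice 19.2, 14.1 and 10.4 CPM, and SCA1 exercise mice 13.7, 9.34 and 11.9 CPM.

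Egr1 and Arc varied least. Egr1 ran from 22 CPM in SCA1 sedentary mouse 195 to 36.8 CPM in WT sedentary mouse 117. Arc was at 25.0, 22.9 and 27.8 CPM in WT sedentary mice, 17.4, 18.2 and 20.2 CPM in WT exercise mice, 30.6, 22.7 and 17.9 CPM in SCA1 sedentary mice and 18.7, 22.1 and 21.1 CPM in SCA1 exercise mice. All 3 WT exercise mice were below all 3 WT sedentary mice. Egr3, a factor related to Egr1, was at or below 0.992 CPM in 10 libraries and at 1.70 and 1.69 CPM in WT sedentary mouse 192 and SCA1 sedentary mouse 16. Dusp1 was at 43.1, 39.5 and 20.5 CPM in SCA1 sedentary mice 16, 194 and 195 and at 38.6 CPM in WT exercise mouse 121 and was below 38.6 CPM in the other 8, down to 17.7 CPM in WT sedentary mouse 192. Ier2 ran from 4.67 CPM in SCA1 exercise mouse 122 to 11.3 CPM in SCA1 sedentary mouse 194.

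The same libraries were high or low for most of the 10 genes. Mouse 16 was the highest library for 7 genes and among the top 3 for 9, and mouse 194 was among the top 3 for 8. Mice 195 and 122 were each among the lowest 3 for 6 genes. SCA1 sedentary mice therefore held both the highest libraries and one of the lowest.

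**Figure D2:**
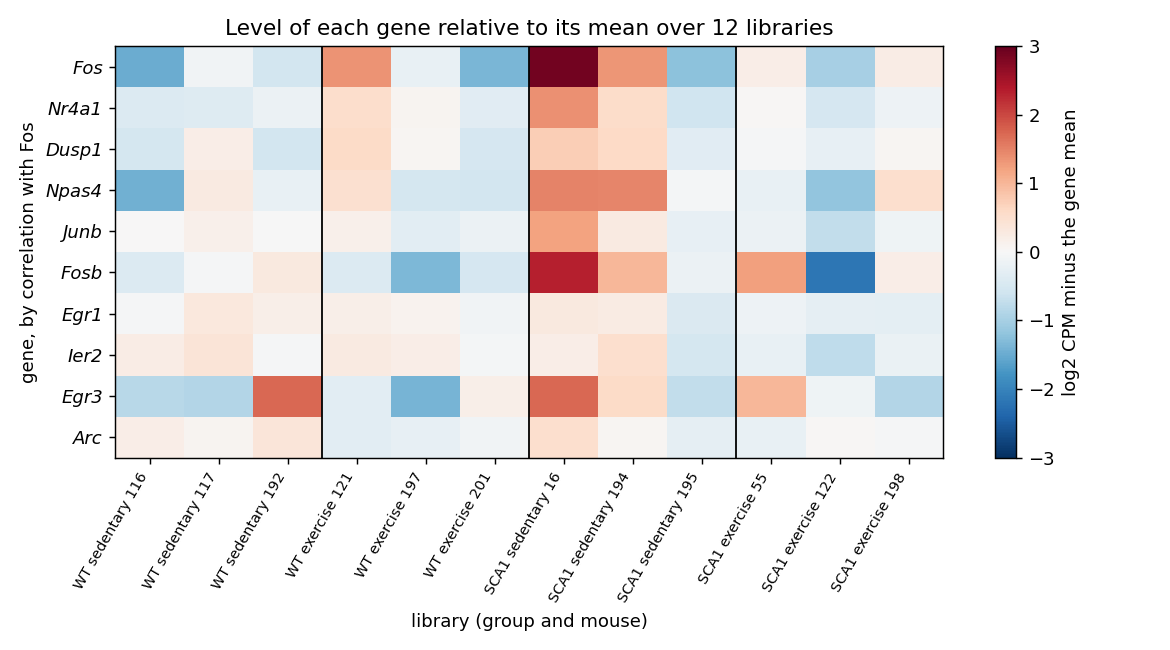
Log2 CPM of each gene minus its mean over 12 libraries, with libraries in columns by group and genes in rows by correlation with Fos. Mice 16 and 194 are high over most rows, and mice 195 and 122 are low.

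The comparison of genotypes in sedentary mice asked whether SCA1 cerebellum differed in these genes among mice housed without a running wheel. These mice were sampled at the same age as the exercise mice, so the comparison is not a baseline taken before exercise. In edgeR's quasi-likelihood model of all 12 libraries, 0 of the 10 genes were called, which required an adjusted p under 0.05 together with a log2 fold change (log2FC) beyond 0.5 in size, where 0.0344% of all genes tested were called. At an unadjusted p under 0.05 there were 3, Fos, Npas4 and Nr4a1, all higher in SCA1, against 10.1% of all genes. DESeq2 on all 12 libraries called 203 of 35116 genes and 0 of the 10, with 5 of the 10 at an unadjusted p under 0.05. The share of all genes at that p was not counted in DESeq2. Fos differed by a log2FC of 2.44 (SE 0.87, 95% interval 0.56 to 4.33, edgeR adjusted p = 0.374), Npas4 by 1.5 (SE 0.56, adjusted p = 0.392) and Nr4a1 by 0.98 (SE 0.38, adjusted p = 0.414). Fosb had a log2FC of 1.56, Dusp1 of 0.66, Junb of 0.49 and Egr3 of 0.35. Egr1, Arc and Ier2 were near 0, at -0.08, -0.09 and -0.07. The median over the 10 was 0.57 against 0.02 over all genes, and 7 of 10 were higher where 52.5% of all genes were.

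These differences depended on single mice. Without mouse 16 the log2FC of Fos was 1.20, of Nr4a1 0.42 and of Fosb 0.62, and without mouse 195 they were 2.94, 1.33 and 1.96. Without mice 16 and 55 Npas4 kept a log2FC of 1.29, and Junb was at 0.00. Of the 10 genes, the number with an unadjusted p under 0.05 was 0 without WT sedentary mouse 116, 2 without mouse 16 or mouse 194, and 6 without mouse 195. The share of all genes at that p was not counted in these refits. The part of the brainstem and oligodendrocyte markers of mouse 16 in its high values was not tested. Mouse 194 had 15.5 CPM of Fos with brainstem markers at 41.8 CPM. Choroid plexus markers were at 807, 1155 and 9.04 CPM in mice 16, 194 and 195, so mouse 195 was the lowest of its group in these as in Fos, while mouse 55 had 1584 CPM of them with 7.06 CPM of Fos. Their median log2FC was 2.46, with 6 of 6 higher, 4 at an unadjusted p under 0.05 and 0 called. All 6 Purkinje cell markers were lower, with a median of -0.77, 6 at an unadjusted p under 0.05 and 1, Calb1, called. The part of either marker list in the differences of the 10 genes was not tested. With ranges of mouse numbers as a block, Fosb was at 0.24.

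**Figure D3:**
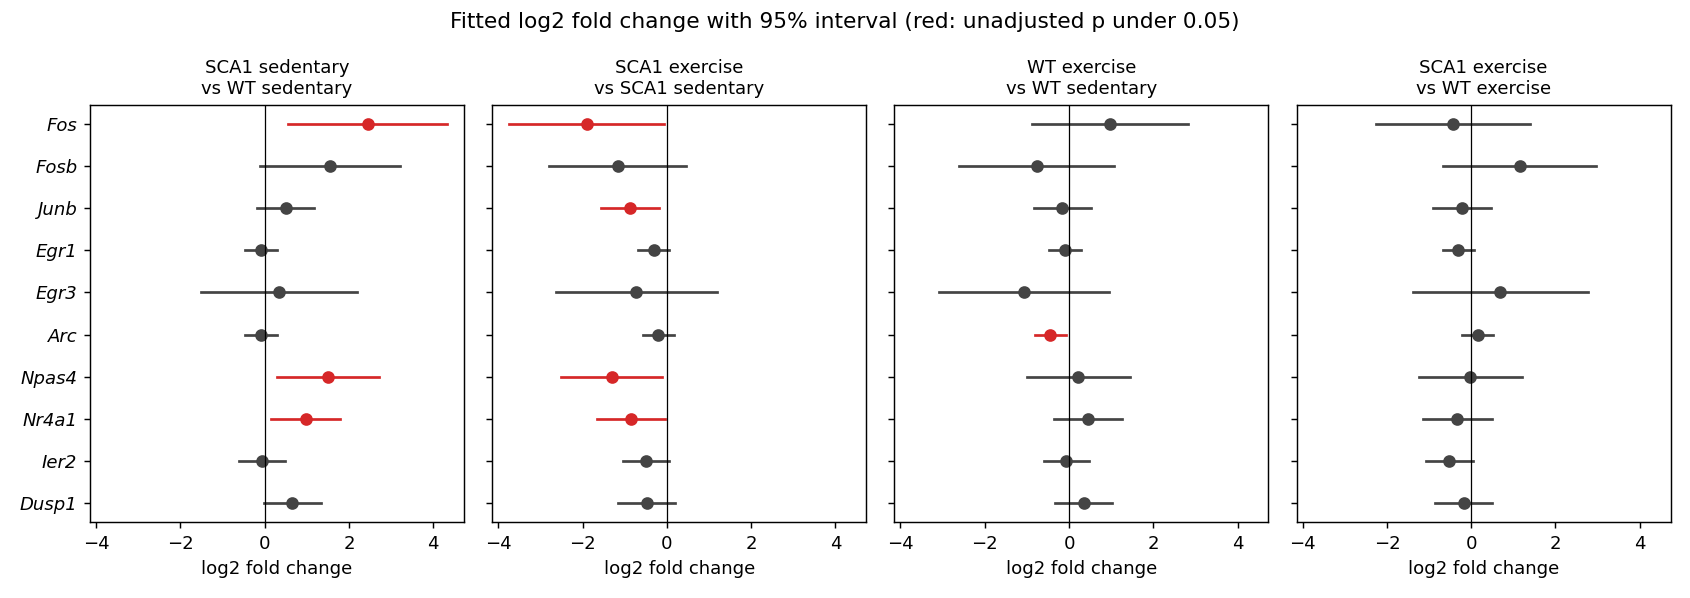
Fitted log2FC of each gene with its 95% interval in 4 comparisons, red where the unadjusted p was under 0.05. All 10 points lie below 0 for SCA1 exercise against SCA1 sedentary, where Fos is at -1.90, and 0 genes pass the adjusted threshold in any panel.

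Exercise within SCA1 mice gave lower fitted values for all 10 genes, where 48.1% of all genes were higher, and 0 were called against 0.0% of all genes. At an unadjusted p under 0.05 there were 4, Fos, Junb, Npas4 and Nr4a1, against 2.17% of all genes. DESeq2 on all 12 libraries called 1 of 35116 genes and 0 of the 10, with 4 of the 10 at an unadjusted p under 0.05. Its share of all genes at that p was not counted. The log2FC was -1.90 (SE 0.85) for Fos, -0.87 (SE 0.32) for Junb, -1.31 (SE 0.55) for Npas4 and -0.85 (SE 0.38) for Nr4a1, each with an edgeR adjusted p of 0.999. The other genes had log2FC of -1.17 for Fosb, -0.73 for Egr3, -0.50 for Ier2, -0.48 for Dusp1, -0.32 for Egr1 and -0.20 for Arc. The median was -0.79 against -0.01 over all genes. This comparison shares the SCA1 sedentary mice with the previous one, so high values in mice 16 and 194 enter both. Without mouse 16, and likewise without SCA1 exercise mouse 122, 0 genes had an unadjusted p under 0.05, whereas without mouse 195 there were 9. It was 1 without mouse 194 and 2 without SCA1 exercise mouse 198. Without mouse 16 Fos was at -0.66, Nr4a1 at -0.29 and Junb at -0.35.

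Exercise within WT mice gave 4 genes higher and 6 lower, with a median log2FC of -0.08 against 0.00 over all genes. None was called by edgeR, where 0.0% of all genes were called, and Arc alone had an unadjusted p under 0.05, against 4.69% of all genes. Arc was lower by a log2FC of -0.44 (SE 0.17, edgeR adjusted p = 0.958) with no overlap between the groups, as were 11.1% of all genes lower in WT exercise. DESeq2 on the WT libraries alone gave Arc an adjusted p of 0.0161, still short of the limit on log2FC, and on all 12 libraries it gave 0.863. Without WT sedentary mouse 192, or WT exercise mouse 121 or 197, Arc no longer had an unadjusted p under 0.05 in edgeR. Fos had a log2FC of 0.97, which was -0.06 without WT exercise mouse 121, Nr4a1 of 0.45 and Dusp1 of 0.35. Mouse 121 also had the highest sum of choroid plexus markers, 1888 CPM, and these markers had a median log2FC of 3.25, with 5 of 6 at an unadjusted p under 0.05, 0 called, and their part in these values was not tested.

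Genotype was also compared among exercised mice. No gene was called, nor was any of all genes (0.0%), and 0 of the 10 had an unadjusted p under 0.05 in edgeR against 2.93% of all genes. DESeq2 on all 12 libraries called 3 of 35116 genes and 0 of the 10. It had 1 of the 10 at an unadjusted p under 0.05, where the share of all genes was not counted. On the exercised mice alone it called 78 of 32586 genes, and edgeR without mice 16 and 55 called 37 of 20494, with 0 of the 10 in each. Egr1 and Ier2 were lower in every SCA1 exercise mouse than in every WT exercise mouse, with log2FC of -0.30 and -0.52, where 6.92% of all genes were without overlap in that direction. With 3 mice against 3, an exact permutation test cannot give a two-sided p below 0.1.

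Over both genotypes, 0 genes were called for exercise (0.0% of all genes), and Arc at -0.32 (SE 0.12) and Junb at -0.51 (SE 0.22) had an unadjusted p under 0.05, against 3.54% of all genes. In an exact permutation test stratified by genotype, Arc was lower in exercise mice by 0.30 on the log2 scale (two-sided exact p = 0.045, among 20 such tests of single genes, unadjusted). That p was 0.217 in the exact test without mice 16 and 55. Over both activity groups, 0 of the 10 were called for genotype against 0.118% of all genes, and Fosb, at 1.35 (SE 0.57), had an unadjusted p under 0.05 against 9.81% of all genes. For the interaction, which asks whether exercise acted differently in SCA1 and WT mice, 0 were called (0.0% of all genes), and Fos at -2.87 (SE 1.20) and Nr4a1 at -1.30 (SE 0.53) had an unadjusted p under 0.05 against 3.78% of all genes. DESeq2 on all 12 libraries called 0 for exercise, genotype and interaction, with 2, 1 and 3 at an unadjusted p under 0.05. For the interaction that number in edgeR was 0 when any one of mice 116, 121 and 122 was left out, and 7 without mouse 195. The share of all genes at that p was not counted in DESeq2 or in these refits. Without mouse 16, pooled Junb was at -0.25, pooled Arc at -0.21, and the interaction at -1.64 for Fos and -0.74 for Nr4a1. Fosb over both activity groups was at 0.86 without mouse 55, 0.89 without mouse 16 and 0.41 without both.

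The spread between libraries of a group was itself large for part of the genes. The SD of log2 CPM, pooled over groups, was 1.34 for Fos, which exceeded that of 99.2% of the genes tested. Egr3 had 1.15 and Fosb 1.12, both with low counts, and Npas4 had 0.81. Nr4a1 had 0.56, Dusp1 0.46, Junb 0.43 and Ier2 0.34. Egr1 at 0.24 and Arc at 0.22 lay below the median of 0.27 over all genes. Among the 16746 genes with an average log2 CPM of at least 0, where the median was 0.22, Egr1 exceeded 53.1% and Arc 49.1%. Fos had an SD of 2.08 in SCA1 sedentary and 1.37 in WT exercise mice, against 0.71 in WT sedentary and 0.70 in SCA1 exercise mice.

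**Figure D4:**
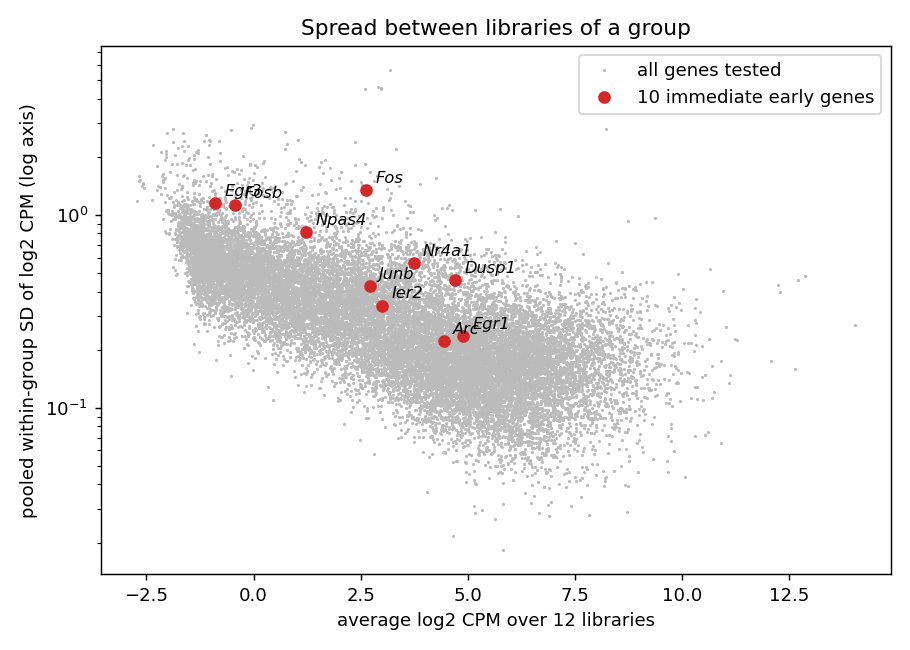
Pooled within-group SD of log2 CPM on a log axis against average log2 CPM, with all genes tested in grey and the 10 genes in red. Fos, at 1.34, exceeds 99.2% of the genes tested, and Arc, at 0.22, within the bulk.

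Part of the genes varied with Fos between libraries. Over 12 libraries, Nr4a1 had a Pearson r of 0.950 with Fos (Spearman rho 0.839), Dusp1 of 0.925 (rho 0.867) and Npas4 of 0.863 (rho 0.874). Among 9 relations tested by permutation with Benjamini-Hochberg adjustment, the Pearson p was 0.00027 for Nr4a1, 0.00027 for Dusp1 and 0.0003 for Npas4, and the Spearman p was 0.0033, 0.00293 and 0.00288. Without SCA1 sedentary mouse 16 and WT exercise mouse 121, which lay farthest from the median of Fos, r was 0.863 for Nr4a1, 0.898 for Dusp1 and 0.837 for Npas4. These 3 relations also held with the group means removed, at 0.950, 0.905 and 0.833. Junb (r = 0.795, rho 0.629) and Fosb (r = 0.685, rho 0.629) had adjusted permutation p of 0.00578 and 0.0263 for r but 0.0567 for rho and were at 0.474 and 0.574 without the farthest libraries. Egr1 (0.593), Ier2 (0.486), Egr3 (0.450) and Arc (0.276) did not pass. With group means removed, r with Fos was 0.894 for Egr1, 0.870 for Junb, 0.734 for Ier2 and 0.672 for Fosb. Their adjusted permutation p were 0.00018, 0.000954, 0.0102 and 0.0218. Those p are too small, because the permutation took no account of the group means removed. SCA1 sedentary mice 195 and 16 then lay farthest from the median of Fos. Without them r was 0.754 for Egr1, 0.675 for Junb, 0.6055 for Ier2 and 0.462 for Fosb. Over all 45 pairs of the 10 genes r ran from 0.0267 to 0.950, with a median of 0.561, and 39 pairs were positive without mice 16 and 55.

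Other rapid response genes, a list of 40 of which 38 were tested, gave 26 higher and 12 lower in SCA1 sedentary against WT sedentary mice, where 52.5% of all genes were higher, with 0 called and a median log2FC of 0.22. At an unadjusted p under 0.05, which 10.1% of all genes had, 11 were higher and 3 lower. Maff had the largest value at 1.64, then Nr4a3, a relative of Nr4a1, at 1.31 and Ccn2, a secreted matrix protein, at 1.06, and the lower ones were Klf10 at -0.83, Dusp5 at -0.78 and Ier3 at -0.66. In SCA1 exercise against SCA1 sedentary mice 28 of 38 were lower, where 48.1% of all genes were higher, with a median of -0.13, and Egr4 at -0.96 alone had an unadjusted p under 0.05, against 2.17% of all genes. In the other comparisons 0 were called, and counts at an unadjusted p under 0.05 follow with the share over all genes. There were 4 higher and 2 lower for exercise within WT mice (4.69%), and 2 higher and 1 lower for genotype among exercised mice (2.93%). Exercise over both genotypes had 3 lower (3.54%), and genotype over both activity groups 6 higher and 3 lower (9.81%). The interaction had 2 higher and 7 lower (3.78%). By the same rule, exercise within WT mice gave Ccn2 at 0.81, Nr4a3 at 0.81, Klf4 at 0.73, Ier5 at -0.39 and Jund at -0.32, and genotype among exercised mice gave Arl4d at 0.92, Jund at 0.31 and Dusp5 at -0.74. Exercise over both genotypes gave Egr4 at -0.65, Jund at -0.22 and Ier5 at -0.22. Genotype over both activity groups gave Arl4d at 0.88, Nr4a3 at 0.71, Rgs2 at 0.57, Dusp5 at -0.76, Klf10 at -0.55 and Ier3 at -0.34. The interaction gave Maff at -1.79, Nr4a2 at -1.43, Nr4a3 at -1.20, Ier3 at 0.63 and Klf10 at 0.57.

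Delayed activity genes, 24 in number, had 0 called in each comparison, with medians of 0.02 for genotype in sedentary mice and 0.04 for exercise in SCA1 mice. At an unadjusted p under 0.05, genotype in sedentary mice gave 2 of 24 higher and 1 lower, against 10.1% of all genes. These were Plk3 at 0.73, Spry4 at 0.66 and Nptx1 at -0.39. Exercise gave 1 higher, Sgk1, a kinase, at 0.41 in SCA1 mice (2.17% of all genes) and at 0.37 over both genotypes (3.54% of all genes). Genotype among exercised mice gave 3 of 24 higher, against 2.93% of all genes, Sst at 3.28, Sgk1 at 0.39 and Nrn1 at 0.32. Over both activity groups 5 were higher and 1 lower, against 9.81% of all genes. Those named are Sst at 2.29, Vgf at 1.24, Inhba at 0.68 and Nptx1 at -0.34. SCA1 mouse 55 enters both comparisons and mouse 16 the second, with brainstem markers at 178 and 205 CPM. The part of those markers in these values was not tested. Upstream regulators, 28 genes that carry calcium and kinase signals to the promoters, had 0 called, with medians of -0.08 and -0.03. For genotype in sedentary mice 5 of 28 had an unadjusted p under 0.05, against 10.1% of all genes, all negative, led by Camkk2 at -0.44, Mef2a at -0.36 and Ppp3ca at -0.32. Among exercised mice 1 was lower, Camkk2 at -0.42, against 2.93% of all genes. Over both activity groups 6 were lower, against 9.81% of all genes, led by Camkk2 at -0.43, Camk4 at -0.37 and Mef2a at -0.30. Summed levels of the 28 genes were 3715 CPM in mouse 16 and 3984 CPM in mouse 55, against 4428 to 5048 CPM elsewhere. The part of these SCA1 mice and their marker levels in the lower values was not tested.

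The genes most like the mean scaled profile of the 10 over 12 libraries, among 16738 with an average log2 CPM of at least 0, were Gm22513 (r = 0.943), Ggta1 (0.927), Entpd6 (0.903), 2900026A02Rik (0.901), Nxpe4 (0.885), Thra (0.883), C2cd2l (0.875), Rab11fip5 (0.872), Cacnb1 (0.871) and Csk (0.868). All 10 were highest in mouse 16, and none was in the lists above. An r of at least 0.8 was reached by 113 genes.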

How the data were processed

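Total cerebellar RNA was depleted of ribosomal RNA, made into strand-specific libraries and sequenced. A pair of samples with lower RNA integrity were prepared by the authors with another fragmentation time and number of amplification cycles, and which mice they came from is not given in the sources used here. Per the labels, the authors used FastQC 0.11.9, fastp 0.24.0 and STAR 2.7.10a with GRCm39, and deposited raw counts of read pairs per gene without normalization; the annotation release is not given in the sources used here. Of 56941 genes, 56323 matched GENCODE M39 by Ensembl ID.

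The reverse-strand counts were used. In R 4.3.3, edgeR 4.0.16 (filterByExpr, TMM) fitted one quasi-likelihood model of the 4 groups for 7 comparisons, with Benjamini-Hochberg adjustment over all 20341 genes. Log2 CPM was taken after adding a prior count of 2, with library sizes scaled by TMM. Exact permutation tests used all 400 arrangements within strata, and correlations 100000 permutations. Low counts limit the precision of Fosb and Egr3. P-values measure the spread between mice. Alternatives were DESeq2 1.42.0, RLE, other filters, unstranded counts, covariates and leaving mice out. Scripts were tested on simulated data.

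All 10 genes are named. From the other lists, up to 3 genes higher and 3 lower with the largest log2FC at an unadjusted p under 0.05 are named in each comparison, and the 10 genes most like the mean profile. The genes and lists were chosen with earlier results of these data known.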

Additional observations from a re-analysis of the deposited data

Results flagged for a closer look

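Counts on the strand opposite to the gene, which the comparisons do not use, were high for Junb. A median of 43.9% of its counts over both strands lay on the opposite strand, between 27.6% and 53.3% per library, against 5.54% to 6.01% over all genes, and it was above its library's share in 12 of 12. Exons of Prdx2 and Gm65321 overlap Junb on that strand in GENCODE M39. For Dusp1, which Ergic1 overlaps, the share was above that of the library in 10 of 12, with a median of 7.83%. The reverse-strand counts used here leave those reads out.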

How the results depend on the processing

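None of the 10 genes was called in any of the 7 comparisons under any alternative run. The most called of all genes in a run was 205 for genotype in sedentary mice, 78 for genotype among exercised mice and 312 for exercise within WT mice. It was 1 for exercise within SCA1 mice, 6 for exercise over both genotypes, 177 for genotype over both activity groups and 2 for the interaction. Where a run called few genes or none, 0 of the 10 says little about these genes. The pooled log2FC and interaction values named kept their sign, but with ranges of mouse numbers blocked Fosb over both activity groups was at 0.18. With levels of chromosome Y genes as a covariate, 2 of the 10 had an unadjusted p under 0.05 for exercise within SCA1 mice, against 4 without it. Exercise over both genotypes had 1 against 2, and genotype over both activity groups 0 against 1. The numbers for the other comparisons did not change, and the share of all genes was not counted in that fit. Without mice 16 and 55, for genotype in sedentary mice Junb was at -0.00073 and Egr3 at -0.51, and Arc was at 0.0867 in SCA1 exercise against SCA1 sedentary mice. When ranges of mouse numbers, which the labels do not call a batch, were blocked, Egr3 was at -0.82 in SCA1 sedentary against WT sedentary mice. Leaving out 1 mouse at a time in that comparison gave log2FC from -0.0208 to 0.75 for Junb, -0.22 to 0.10 for Egr1, -0.54 to 2.01 for Egr3, -0.31 to 0.0656 for Arc and -0.33 to 0.16 for Ier2. In SCA1 exercise against SCA1 sedentary mice it gave -1.47 to 0.16 for Egr3 and -0.36 to 0.0226 for Arc, and for exercise within WT mice -0.0632 to 1.41 for Fos.

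Without mice 16 and 55, r with Fos was 0.431 for Fosb and 0.582 for Junb, no longer past the threshold, and -0.213 for Arc. The r of Egr1 passed with unstranded counts (0.628) and with group means removed (0.894), as did that of Ier2 with group means removed (0.734). With group means removed the permutation p were too small, as stated above. Without mice 16 and 55 the stratified difference of Arc between exercise and sedentary mice was -0.17 and no longer passed, and the pooled SD was 0.27 for Junb and 0.14 for Arc. The cause of each change was not tested, beyond the fewer mice. No paired analysis was possible because each mouse carries its own number.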
